A study of Rattus norvegicus with 6 samples.

Results

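The imprinted Dlk1-Dio3 region of rat chromosome 6 encodes a large cluster of microRNAs (miRNAs), and 37 of its mature miRNAs were measured here in the left ventricle of the heart. They were the array's rno-miR probes whose name equalled an entry of a list of cluster miRNAs, 37 of 758 miRNAs on the array. The prefix rno marks rat miRNAs and is mostly left out. The samples were left ventricular myocardium of male Wistar rats after 20 weeks on either normal chow (3 samples) or a high-fat diet (3 samples), each hybridised to 1 single-colour Agilent array. The sample titles call the chow group normal and the high-fat group obesity. Diet was the only treatment that the labels gave as differing between the groups, and no age, genotype or drug was stated. Nothing in the labels says whether samples of the same diet are separate animals, and p-values therefore rest on a spread between arrays that may be technical.

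At imprinted loci only the allele from one parent is active. In the mouse, the paternal Dlk1-Dio3 copy gives the protein-coding genes Dlk1, Rtl1 and Dio3, and the maternal copy gives long non-coding RNAs, among them Meg3, a transcript antisense to Rtl1, and Mirg, from which the miRNAs are cut. Each hairpin can yield a mature miRNA from its 5′ arm (5p) and its 3′ arm (3p), and bases 2 to 8 of the miRNA, the seed, choose most of the messenger RNAs it lowers. The cluster is known to be active in embryo, placenta and brain, and in muscle progenitors, and several of its members have been studied in vessels and heart of mice. In bulk tissue, fewer cells of a type and less RNA per cell cannot be told apart.

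In the RefSeq annotation of the rat genome build GRCr8, 36 of the 37 members had a listed sequence and position, all on chromosome 6. They formed groups separated by 189 kb. The first, called here the Meg3/Rtl1 side, ran over chr6:134298094-134354559 and held 12 positioned members; with miR-136-5p, counted here by its hairpin partner miR-136-3p, this side has 13 members from 10 hairpins. miR-770 lay within the gene of Meg3, and miR-431, miR-433, miR-127, miR-434 and miR-136 lay within the span of Rtl1, whose mouse message is cut by the miRNAs transcribed opposite it. The second group, the miR-379 side, ran over chr6:134543460-134579527 and held 24 members from 19 hairpins, all within the spans of the unnamed long non-coding RNA genes LOC102555254 and LOC120103623. The span of LOC102555254 also held miR-370-3p of the first side, so this gene crosses the gap between the groups. All 36 lay on the plus strand except miR-299b-3p and miR-3579.

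The sequences that the results turn on are given here 5′ to 3′, from RefSeq on GRCr8, with the seed in capitals. The first set holds the members with the smallest p-values in the diet comparison.
rno-miR-299b-3p: uAUGUGGGacgguaaac
rno-miR-493-5p: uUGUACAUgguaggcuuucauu
rno-miR-431: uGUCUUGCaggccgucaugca
rno-miR-127-3p: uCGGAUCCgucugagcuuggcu
rno-miR-300-5p: uUGAAGAGagguuauccuuugu
rno-miR-770-3p: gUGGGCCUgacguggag
The second set shows members that resemble each other, since an array probe may not separate close relatives.
rno-miR-300-3p: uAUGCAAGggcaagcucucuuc
rno-miR-381-3p: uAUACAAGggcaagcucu
rno-miR-376a-3p: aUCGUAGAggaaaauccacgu
rno-miR-376b-3p: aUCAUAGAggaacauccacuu
rno-miR-376c-3p: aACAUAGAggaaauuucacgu
The third set shows the hairpins that are read from opposite strands of the same DNA.
rno-miR-299a-5p: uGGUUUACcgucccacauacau
rno-miR-299a-3p: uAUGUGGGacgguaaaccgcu
rno-miR-3579: gCGCAUGUucuauggucaacca
rno-miR-380-5p: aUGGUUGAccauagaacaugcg

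All 36 sequences had a seed of their own, and 0 members shared one. miR-300-3p and miR-381-3p differed at 1 of 18 bases compared, G4A, counted from 1 at the 5′ end of miR-300-3p, which lies in the seed. miR-376b-3p and miR-376a-3p differed at 3 of 21 bases compared, A4G, C13A and U20G, and the first of these lies in the seed. miR-299b-3p was identical over its 17 bases to the start of miR-299a-3p, although the annotation places them on opposite strands. Its 17 bases are also the reverse complement of a stretch of miR-299a-5p, and 21 bases of miR-3579 are the reverse complement of miR-380-5p.

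A probe was called well above background on an array when at least 50% of its spots were, by the scanner software's flag. By this rule 17 of the 37 members were detected on all 6 arrays, 7 on 4 or 5 arrays and 13 on 0 arrays. Over the whole array, 378 of 758 miRNAs (49.9%) were detected on all 6 arrays and 280 (36.9%) on 0. The cluster, at 45.9% and 35.1%, was close to these 2 shares. It held larger shares on 4 arrays (10.8%, against 2.11% of all miRNAs) and on 5 arrays (8.11%, against 2.24%). On 1, 2 and 3 arrays it held 0%, against 3.3%, 3.69% and 1.85% of all miRNAs. These gaps were not tested. Chow replicates 1, 2 and 3 detected 20, 24 and 18 members, and high-fat replicates 1, 2 and 3 detected 23, 24 and 24. The groups overlapped, since chow replicate 2 had as many members as any high-fat array. Chow replicates 1 and 3 also detected the fewest miRNAs of the whole array, 395 and 388, against 418 on chow replicate 2 and 414, 454 and 471 on the high-fat arrays.

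**Figure D1:**
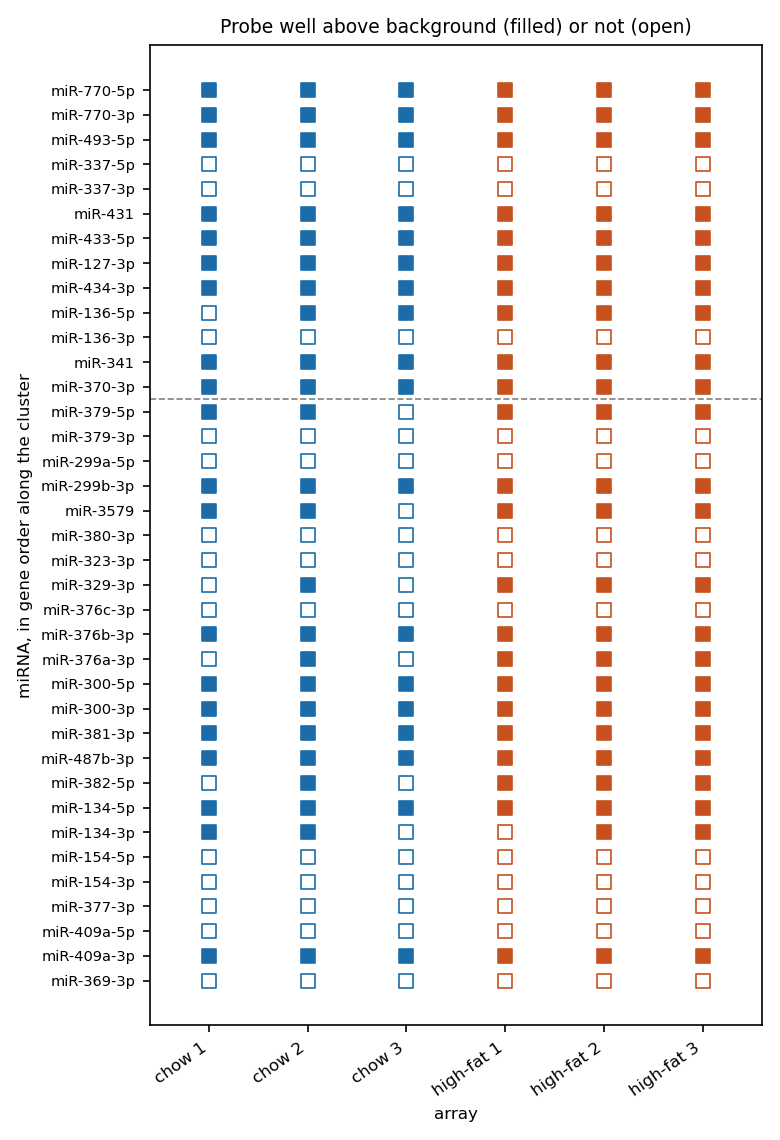
Detection of the 37 cluster miRNAs (rows, in gene order) on the 6 arrays (columns): a filled square marks a probe well above background, an open square one that was not, blue is chow and orange high-fat diet, and the dashed line separates the Meg3/Rtl1 side (above) from the miR-379 side. Most rows are either filled or open on all 6 arrays, and 7 rows are mixed.

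On the Meg3/Rtl1 side 10 of 13 members were detected on at least 3 arrays, the rule for entering the diet comparison, and on the miR-379 side 14 of 24. This difference was not tested. The members seen on 0 arrays were both strands of miR-337 and of miR-154, miR-136-3p, miR-379-3p, miR-299a-5p, miR-380-3p, miR-323-3p, miR-376c-3p, miR-377-3p, miR-409a-5p and miR-369-3p. For these the arrays give no level in either diet. The 7 mixed members were dim throughout, and every one of them missed at least 1 chow array. miR-329-3p, miR-376a-3p and miR-382-5p were seen on chow replicate 2 alone among the chow arrays and on all 3 high-fat arrays. Their high-fat arrays carried them past the rule of at least 3 arrays, so their diet differences are not independent of that rule. miR-379-5p and miR-3579 missed only chow replicate 3, and miR-136-5p missed only chow replicate 1. miR-134-3p missed chow replicate 3 and high-fat replicate 1.

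The median GC content was 50% over the 23 tested members with a sequence and 40.9% over the 13 untested ones. Over all 685 miRNAs of the array with a sequence (90.4%), the medians were 47.8% for 388 tested and 47.4% for 297 untested miRNAs, a smaller gap. Whether base content plays a part in detection within the cluster was not tested.

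Of the 29 hairpins, 21 had at least 1 tested strand. Among the 8 hairpins with both strands among the members, both were tested for miR-770, miR-300 and miR-134. Only 1 strand was seen for miR-136 (5p on 5 arrays, 3p on 0), miR-379 (5p on 5 arrays, 3p on 0) and miR-409a (3p on 6 arrays, 5p on 0). At the hairpins annotated on opposite strands, the minus-strand miR-299b-3p was detected on 6 arrays, while miR-299a-5p, miR-299a-3p and miR-299b-5p were each detected on 0. The other probe for miR-299b-3p was also detected on 0 arrays, so its signal rests on 1 probe. The minus-strand miR-3579 was detected on 5 arrays by each of its probes, while miR-380-5p and miR-380-3p, from the plus-strand hairpin opposite it, were detected on 0.

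The diet comparison asked which cluster miRNAs differ in heart muscle after high-fat feeding. Values are log2 of the signal after each array was divided by its own 75th percentile over well-detected probes, so 0 is that percentile, and differences are high-fat minus chow. Probes differ in how brightly they report, so levels of different miRNAs are not set against each other. Among 425 miRNAs tested across the array, 2 passed limma's test at an adjusted p under 0.05 (0.471%). Of the 24 cluster miRNAs tested, 0 passed, and 2 had an unadjusted p under 0.05 (background 11.8%), both with a difference below 0 (background 7.53%) and 0 above (background 4.24%). Their smallest limma adjusted p was 0.326.

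Most of the small differences lay below 0. The median log2 difference of the 24 was -0.12, with a lowest of -0.47 and a highest of 0.20, and 18 were below 0 and 6 above. Over all 425 tested miRNAs the median was -0.04, with 258 (60.7%) below 0 and 167 (39.3%) above. The 17 members seen on all 6 arrays had a median of -0.16 with 14 below 0, against -0.05 over all 378 such miRNAs. The high-fat arrays lay wholly below the chow arrays for 3 of the 24 (background for that direction 10.6%), and wholly above for 0 (background 6.59%). Since slide 2 held only chow arrays, a fit with slide as a block takes every diet difference from chow replicate 1 against the 3 high-fat arrays, which is the comparison within slide 1, and all slide-block values given here rest on that 1 chow array. In that fit the median was -0.22 for the members and -0.09 for all. The members' median was -0.04 without chow replicate 2 (all miRNAs -0.02) and -0.21 without chow replicate 3 (all miRNAs -0.10).

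**Figure D2:**
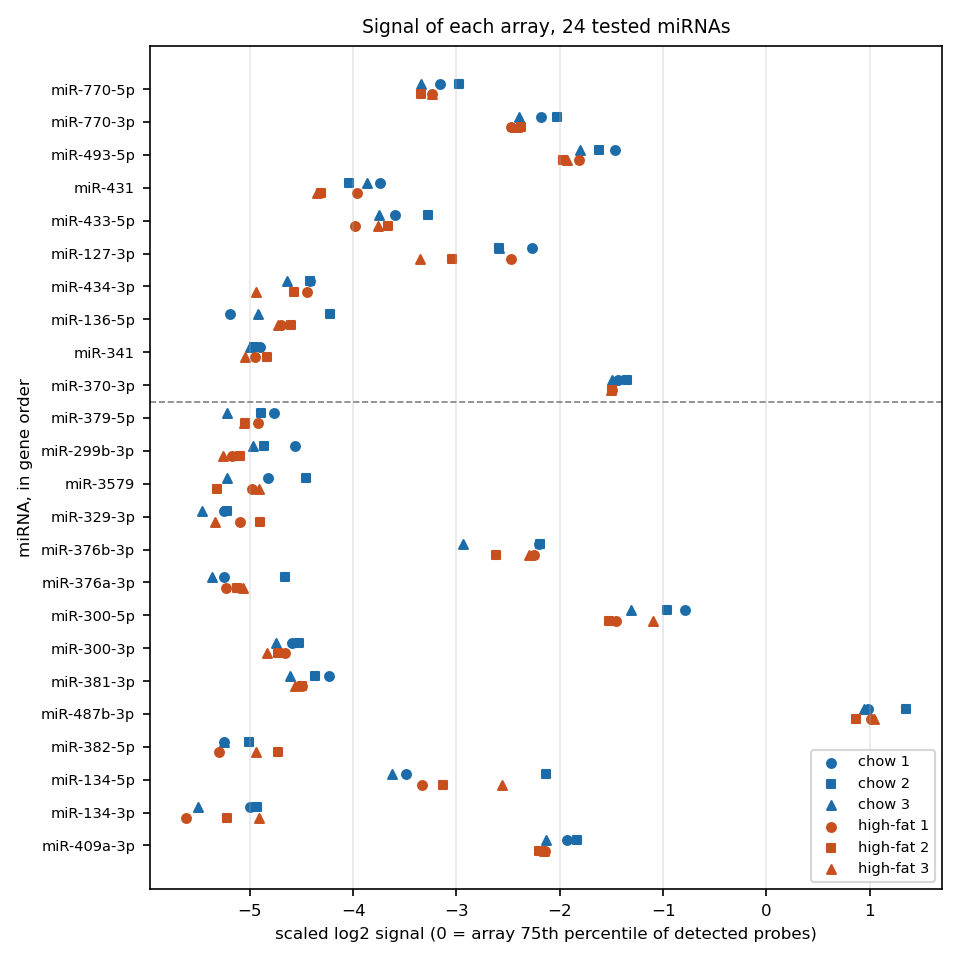
Scaled log2 signal (horizontal axis) of the 24 tested cluster miRNAs (rows, in gene order) on each array, with blue for chow, orange for high-fat diet and the marker shape for the replicate; the dashed line separates the sides of the cluster. The colours overlap in 21 of 24 rows, and miR-134-5p, with its chow replicate 2 at -2.13, spreads most.

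The median SD within a diet was 0.18 for the 24 members and 0.16 for all tested miRNAs. Chow replicate 2 held the highest value for 13 of the 24 members (54.2%), against 27.1% of all tested miRNAs, and the lowest for 0. Chow replicate 3 held the highest for 0 members (4.24% of all) and the lowest for 6 (25%, against 21.6% of all). High-fat replicates 1, 2 and 3 held the lowest value for 4, 6 and 7 members and the highest for 0, 3 and 1, and chow replicate 1 the lowest for 1 and the highest for 7. A member's deviation from its own mean over the 6 arrays had a median of 0.13, 0.19 and -0.11 on chow replicates 1, 2 and 3 and of -0.03, -0.07 and -0.08 on the high-fat replicates. By these medians chow replicates 1 and 2 were highest and chow replicate 3 was lowest, close to the high-fat arrays. For all tested miRNAs these medians ran only from -0.04 on chow replicate 3 to 0.06 on chow replicates 1 and 2.

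On the Meg3/Rtl1 side, 8 of 10 tested members had a difference below 0 and the median was -0.19, or -0.22 with slide as a block. rno-miR-770-3p, from the Meg3 gene, had signals of -2.18, -2.03 and -2.39 on chow replicates 1, 2 and 3 and of -2.47, -2.38 and -2.41 on the high-fat replicates. Its difference was -0.22 ± 0.12 SE (limma adjusted p = 0.478). The 3 high-fat arrays lay close together at the low end, and chow replicate 3 was among them. The partner miR-770-5p gave -3.16, -2.98 and -3.34 in the chow samples and -3.24, -3.34 and -3.24 in the high-fat samples, with a difference of -0.12 ± 0.12 SE (adjusted p = 0.725). Its groups overlapped, with chow replicate 2 highest. All 3 other probes of miR-770-5p gave negative differences as well, from -0.18 to -0.09.

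rno-miR-493-5p, from a hairpin between Meg3 and Rtl1, measured -1.47, -1.62 and -1.80 in the chow samples and -1.81, -1.97 and -1.93 in the high-fat samples. Every high-fat array lay below every chow array, by a narrow margin between chow replicate 3 and high-fat replicate 1. The difference was -0.27 ± 0.12 SE, a 1.21-fold lower signal (unadjusted p = 0.0468, limma adjusted p = 0.412). The second probe gave -0.25. With slide as a block the difference was -0.43. It was -0.28 with the software's total signal, -0.26 with the mean over both probes and -0.29 in the authors' deposited table.

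Among the miRNAs within Rtl1, rno-miR-127-3p, which in the mouse directs cutting of the Rtl1 message, measured -2.27, -2.59 and -2.59 in the chow samples and -2.47, -3.04 and -3.35 in the high-fat samples. High-fat replicates 2 and 3 were lower than all other arrays, while high-fat replicate 1 lay among the chow arrays. The difference, the largest of the 24 with all arrays in the fit, was -0.47 ± 0.22 SE, or 1.38-fold, with a 95% interval from -0.99 to 0.05 (limma adjusted p = 0.419). Without high-fat replicate 3 it was -0.27, smaller than that of miR-300-5p (-0.47) or miR-299b-3p (-0.34) in the same fit, and without high-fat replicate 1 it was -0.71. The second probe gave -0.32. With slide as a block the difference was -0.68. It was -0.41 with the software's total signal and -0.39 both with the mean over probes and in the authors' deposited table.

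rno-miR-431, which in mouse muscle progenitors lowers the stem cell factor Pax7, followed the same order of high-fat arrays. It measured -3.74, -4.04 and -3.87 in the chow samples and -3.96, -4.31 and -4.35 in the high-fat samples, and high-fat replicate 1 again fell among the chow values. The difference was -0.32 ± 0.14 SE (adjusted p = 0.412), and -0.46 with slide as a block. Smaller differences came with the software's total signal (-0.17), the mean over both probes (-0.18) and the authors' deposited table (-0.09). Its other probe was seen on 1 array. miR-434-3p measured -4.42, -4.42 and -4.64 in the chow samples and -4.45, -4.57 and -4.94 in the high-fat samples, with high-fat replicate 3 lowest and a difference of -0.16 ± 0.15 SE, which was -0.02 without that array.

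The remaining Rtl1 miRNAs did not share that order. miR-433-5p measured -3.59, -3.28 and -3.75 in the chow samples and -3.98, -3.66 and -3.76 in the high-fat samples, with high-fat replicate 1 lowest and a difference of -0.26 ± 0.15 SE (adjusted p = 0.510). A second probe, also seen on 6 arrays, gave 0.02, so the probes of miR-433-5p disagreed. miR-136-5p had a difference of 0.10 ± 0.23 SE, and its chow arrays ran from -5.19 to -4.22, on both sides of the high-fat arrays.

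The other members of this side differed least. miR-370-3p, reported in human liver cells to lower CPT1A, an enzyme of fatty acid entry into mitochondria, measured -1.44, -1.35 and -1.49 in the chow samples and -1.49, -1.49 and -1.50 in the high-fat samples. It had the narrowest range of the 24, 0.15, and a difference of -0.07 ± 0.09 SE with a 95% interval from -0.28 to 0.14. miR-341 differed by 0.01 ± 0.10 SE, with a 95% interval from -0.23 to 0.24.

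**Figure D3:**
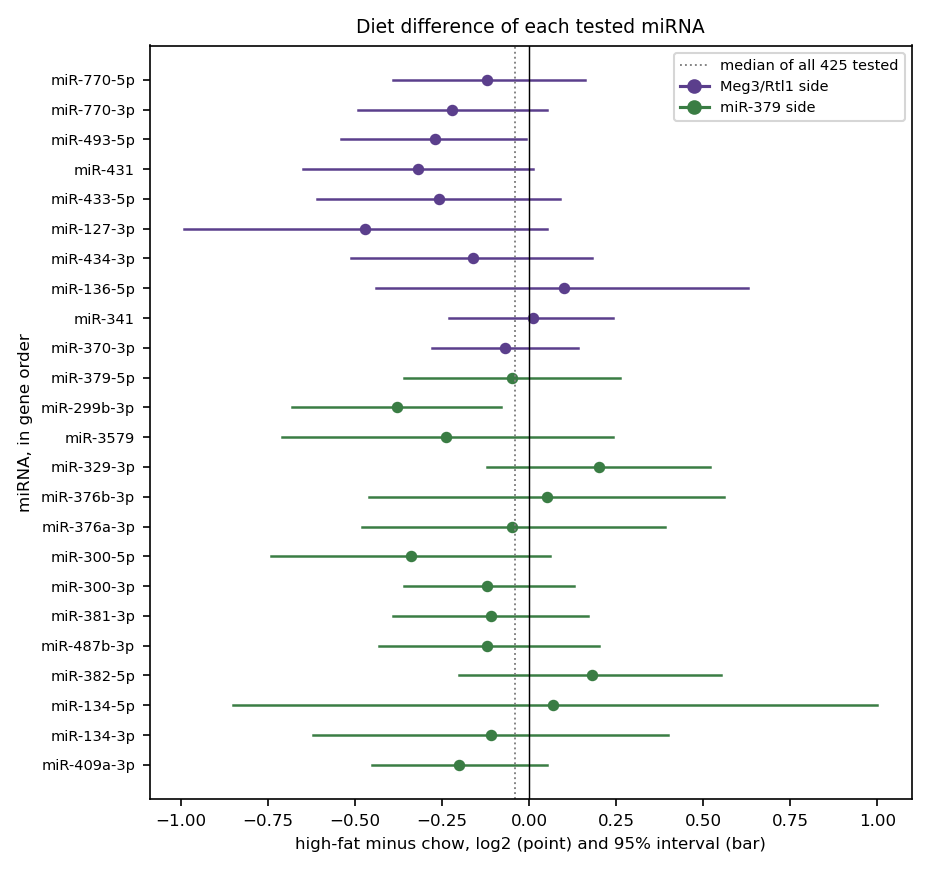
High-fat minus chow difference on the log2 scale (points) with its 95% interval from limma (bars) for the 24 tested miRNAs in gene order; purple is the Meg3/Rtl1 side, green the miR-379 side, and the dotted line the median of all 425 tested miRNAs, -0.04. Only the intervals of miR-493-5p and miR-299b-3p leave out 0, before adjustment for the number of tests.

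On the miR-379 side, 10 of 14 tested members had a difference below 0 and the median was -0.11, or -0.21 with slide as a block. The smallest p of the whole cluster belonged to rno-miR-299b-3p. It measured -4.56, -4.86 and -4.97 in the chow samples and -5.17, -5.09 and -5.26 in the high-fat samples, so all high-fat arrays lay below all chow arrays. The difference was -0.38 ± 0.13 SE, or 1.30-fold (unadjusted p = 0.0207, limma adjusted p = 0.326), and -0.62 with slide as a block. Smaller differences came with the software's total signal (-0.16) and the mean over both probes (-0.19), and a larger one in the authors' deposited table (-0.45). Its signal was dim and came from 1 probe, and as shown above its sequence is shared with the start of miR-299a-3p. The other minus-strand member, miR-3579, measured -4.82, -4.46 and -5.22 in the chow samples and -4.98, -5.32 and -4.91 in the high-fat samples, with a difference of -0.24 ± 0.20 SE and overlapping groups. It was -0.05 without chow replicate 2, -0.11 without high-fat replicate 2 and -0.43 without chow replicate 3.

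The miR-300 hairpin had both strands tested. rno-miR-300-5p measured -0.79, -0.96 and -1.31 in the chow samples and -1.46, -1.52 and -1.10 in the high-fat samples. High-fat replicate 3 lay among the chow values and the other high-fat arrays below them. The difference was -0.34 ± 0.17 SE (limma adjusted p = 0.452), and -0.57 with slide as a block. It was -0.36 with the software's total signal, -0.26 with the mean over probes and -0.37 in the authors' deposited table. Of its 3 other probes, those seen on 6 arrays gave -0.35 and -0.37. miR-300-3p measured -4.59, -4.52 and -4.75 in the chow samples and -4.66, -4.73 and -4.83 in the high-fat samples, a difference of -0.12 ± 0.10 SE. Its near-copy miR-381-3p differed by -0.11 ± 0.12 SE, and the array may not separate their signals.

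For the miR-134 hairpin the samples of a diet disagreed most. miR-134-5p, known from rat neurons as an inhibitor of dendritic spine growth through Limk1, measured -3.49, -2.13 and -3.62 in the chow samples and -3.33, -3.13 and -2.56 in the high-fat samples. Its range of 1.49 was the widest of the 24, with chow replicate 2 and high-fat replicate 3 at the top. The difference was 0.07 ± 0.40 SE, with a 95% interval from -0.85 to 1.00. Without chow replicate 2 the difference was 0.55. miR-134-3p measured -5.0, -4.93 and -5.50 in the chow samples and -5.62, -5.22 and -4.91 in the high-fat samples, a difference of -0.11 ± 0.22 SE.

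The diet differences of the strands of a hairpin were compared directly through each array's 5p minus 3p log2 signal. For miR-770 this was -0.95 ± 0.02 in the chow samples and -0.85 ± 0.10 in the high-fat samples (SD, n = 3 per diet; exact permutation, 2-sided, p = 0.3). It was 3.60 ± 0.18 and 3.38 ± 0.30 for miR-300 (exact permutation p = 0.3) and 2.06 ± 0.66 and 2.24 ± 0.13 for miR-134 (exact permutation p = 0.7; SD, n = 3 each). Adjusted over the 3 pairs the p-values were 0.45, 0.45 and 0.7, and with 3 arrays against 3 no p could fall below 0.1. No difference between strands was detectable in this design.

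Among the other members of the miR-379 side, miR-487b-3p, studied in rat aorta as a regulator of the insulin receptor substrate Irs1, measured 0.98, 1.35 and 0.94 in the chow samples and 1.01, 0.87 and 1.04 in the high-fat samples. Only chow replicate 2 stood apart, and the difference was -0.12 ± 0.13 SE. miR-409a-3p measured -1.93, -1.83 and -2.13 in the chow samples and -2.14, -2.20 and -2.15 in the high-fat samples, so its groups did not overlap, again by a narrow margin. Its difference was -0.20 ± 0.11 SE (limma adjusted p = 0.478), and the 2 other probes gave -0.14 and -0.05. In the miR-376 group, whose members in human and mouse can be altered by A-to-I editing in the seed, miR-376b-3p differed by 0.05 ± 0.22 SE and miR-376a-3p by -0.05 ± 0.19 SE, while miR-376c-3p was not detected. miR-329-3p, one of the cluster miRNAs whose inhibition improved vessel growth in mice, differed by 0.20 ± 0.14 SE and miR-382-5p by 0.18 ± 0.16 SE. These were the highest differences of the cluster, both from dim probes seen on 1 chow array. Both entered the comparison through their high-fat arrays, so their sign is not independent of the filter. They are counted among the 6 members above 0. miR-379-5p, the first miRNA of this side, differed by -0.05 ± 0.13 SE.

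Other probes of the same miRNAs were read on the same arrays with the same scaling, so they are not an independent check of direction. Among 22 further probes of tested members that were seen on at least 3 arrays, 18 gave the same sign as the probe used and 4 the other sign, for miR-341, miR-376b-3p, miR-379-5p and miR-433-5p. In the first 3 of these the differences were within 0.08 of 0 by both probes.

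Other miRNAs of the same region, from a list that is not part of the 37, were tested in the same way. Of 57 on the array, 7 were tested and 0 passed limma's adjusted test, with 4 differences below 0, 3 above and a median of -0.17, which was 0.04 with slide as a block. miR-668 had a difference of -0.34 ± 0.14 SE (adjusted p = 0.412) and miR-494-3p one of -0.17 ± 0.13 SE. On the other side were miR-1188-5p at 0.30 ± 0.17 SE and miR-667-3p at 0.31 ± 0.23 SE. Of 9 miRNAs of other imprinted loci, 4 were tested and 0 passed. miR-335, from the gene Mest, differed by -0.18 ± 0.12 SE, and miR-483-5p and miR-483-3p, from Igf2, by -0.14 ± 0.25 and 0.37 ± 0.33 SE.

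Some array-wide measures separated the diets on these arrays and others overlapped. They stand beside every value above, and their part in these values was not tested. The 75th percentile of signal before scaling was 387 ± 33.9 in the chow samples and 502 ± 77.1 in the high-fat samples (SD, n = 3 per diet; exact permutation, 2-sided, p = 0.2), and the stringency spike-in ratio 3.81 ± 0.376 and 1.49 ± 0.485 (SD, n = 3 each; exact permutation p = 0.1, the smallest possible). By slide, chow replicates 2 and 3 shared slide 2, and the other 4 arrays, the 3 high-fat ones included, shared slide 1. The 4 heart muscle miRNAs miR-1-3p, miR-133a-3p, miR-208a-3p and miR-499-5p were detected on all 6 arrays and their summed scaled signal ran from 211 to 216 in the chow samples and from 167 to 200 in the high-fat samples, with all 4 differences below 0. Summed signal also separated the diets for the 2 erythroid markers (8.98 to 11.1 on chow, 13.7 to 20.1 in the high-fat samples, both differences above 0) and the 7 neuronal ones (1.79 to 1.88 and 1.91 to 2.10). Of the neuronal markers 6 were tested, with 4 differences below 0 and 2 above, and miR-129-5p was detected on 0 arrays. The sums overlapped for the 5 fibroblast markers on the array (19.9 to 21.5 and 21.1 to 22.5), the 2 of smooth muscle (52.2 to 55.7 and 52.6 to 58.2), the 2 of endothelium (68.8 to 72.3 and 61.9 to 73.1), the 5 of immune cells (15.3 to 16.5 and 15.0 to 16.4), the 3 of fat (0.170 to 0.189 and 0.142 to 0.178) and miR-206-3p of skeletal muscle (0.141 to 0.147 and 0.135 to 0.165). Tested markers with differences below and above 0 numbered 1 and 4 for fibroblasts, 1 and 1 for smooth muscle and 2 and 0 for endothelium. They numbered 2 and 3 for immune cells, 1 and 1 for fat and 0 and 1 for skeletal muscle. Brighter probes weigh more in each sum. Of all markers listed here, 0 passed limma's adjusted test.

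The direction of the small differences rested on scaling the arrays to each other. Without scaling, the median difference was 0.32 over all 425 miRNAs and 0.25 over the 24 cluster miRNAs. Then 406 of all 425 were above 0 and 22 of the 24, the exceptions being miR-127-3p (-0.10) and miR-299b-3p (-0.01). Scaling moves all differences by nearly the same amount, so the gap between these medians carries no separate evidence. In all 23 alternative settings 0 members passed the adjusted test, and the smallest adjusted p of any member in any of them was 0.128, for miR-299b-3p in the authors' deposited table of processed values.

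**Figure D4:**
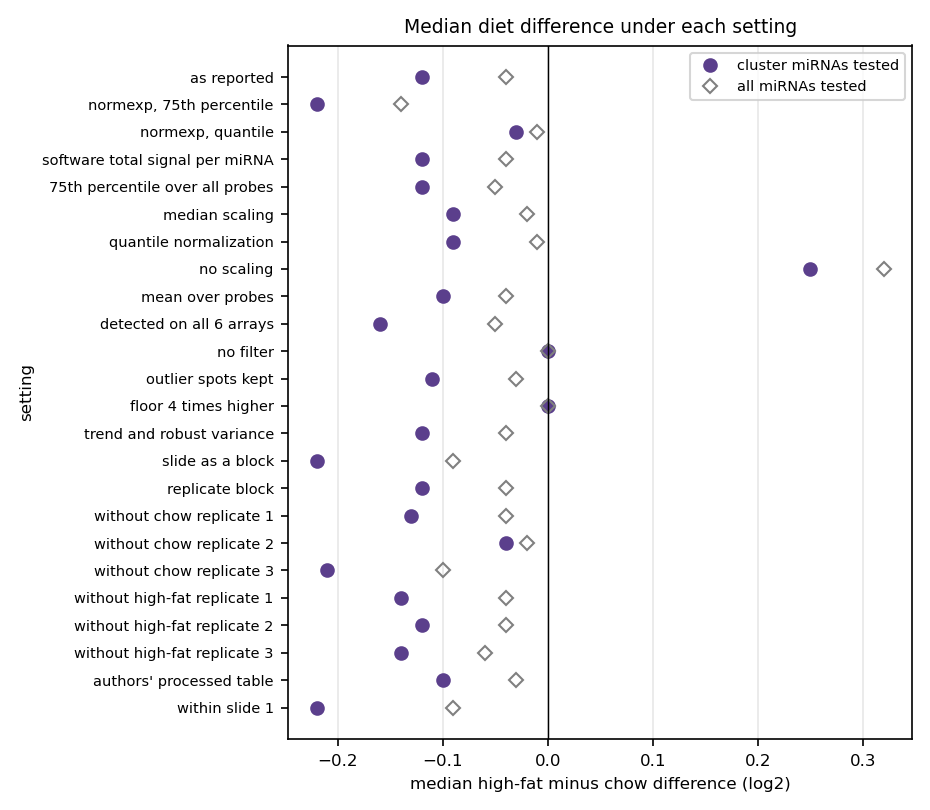
Median high-fat minus chow difference (log2) under each setting, for the cluster miRNAs tested (purple points) and all miRNAs tested (grey diamonds). Both medians are above 0 only without scaling, at 0.25 and 0.32, and at 2 settings they coincide at 0.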

How the data were processed

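Per the labels' protocols, total RNA of each sample received the dye Cy3 and was read on an Agilent miRNA array of its own. The deposited scanner files hold fluorescence intensity of each spot on a linear scale from Agilent Feature Extraction 11.0.1.1, as the submitters' processing notes and the headers state, background-subtracted with no scaling between arrays. The authors' deposited processed table holds values taken as log2, since each column correlated with log2 of the software's total signal at 0.981 to 1.00. The columns shared a median of 3.54, a 75th percentile of 6.62 and a highest value of 17.2, while their lowest values ran from -3.32 to -2.77. The centring of this table and further steps are not given in the sources used here, and the table served as an alternative.

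Spots flagged as outliers (9.07% to 9.42%) were left out and the spots of a probe averaged. Each array was divided by its 75th percentile over the 757 probes that all 6 arrays detected, values under a floor of -5.82 (log2) were raised to it, and the brightest probe stood for a miRNA. A probe counted as detected where at least 50% of its spots carried the software's flag, and a miRNA was tested when well above background on at least 3 arrays (425 of 758). The number of arrays limits the precision.

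The diet test used limma 3.58.1 under R 4.3.3 (lmFit, eBayes, Benjamini-Hochberg over all 425), with no covariate. The same fit was also run on simulated data with independent noise, and no result given here rests on that run. Members and lists were chosen with earlier results of these data known. Named with values on every array are the 6 members with the smallest p and hairpins with both strands tested. Others named with such values were added after their values were seen, most for their gene neighbourhood, narrow range or non-overlapping arrays. miR-487b-3p was added outside these reasons. The normexp correction used the median signal of a spot. Alternatives were other background corrections, scalings, filters, floors, variance models, slide or replicate number as a block, and each array left out.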

Additional observations from a re-analysis of the deposited data

How the results depend on the processing

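In all 23 alternatives 0 of the cluster miRNAs passed limma's adjusted test, and 483 of 533 recomputed differences kept their sign, while 50 had the other sign. Many of the 533 could not change, since the variance model, the replicate block and the detection filters leave a member's difference as it is. Slide as a block and within slide 1 give the same differences and were both counted. The share that kept its sign therefore does not measure robustness. Over all miRNAs 2 were called, against 0 to 8 in the alternatives (8 with normexp and the 75th percentile, 0 with quantile normalization, a floor 4 times higher, slide as a block, within slide 1, no filter, the authors' deposited table and 4 of the 6 fits that left out 1 array). The number of members above 0 was reported as 6 of 24 (167 of all 425 tested miRNAs). It was 22 without scaling (median 0.25, 406 of all) and 0 with normexp and the 75th percentile (86 of all). It was 3 of 17 when detection on all 6 arrays was required (139 of all 378). With the floor 4 times higher it was 2 (121 of all 425), where members at the floor on every array have no difference. When 1 array was left out, it ran from 3 without chow replicate 3 (139 of all) to 8 without chow replicate 2 (199 of all). The replicate block cannot change a difference in this balanced design, so the members' median of -0.12 with 6 above 0 stayed by construction. Only the p-values could move, and 0 members were called, with 3 calls over all miRNAs against 2. Whether the replicate numbers pair the samples is not known, and with 3 arrays per diet the deviations cannot decide it. Deviations of same-numbered samples correlated at 0.219, -0.0124 and 0.0532, and among the chow samples only replicate 1 correlated best with its own number. Without scaling the sign turned for miR-134-3p, miR-300-3p, miR-487b-3p and miR-770-5p (0.25 each), miR-370-3p (0.30), miR-376a-3p (0.29), miR-379-5p (0.32), miR-381-3p (0.26), miR-409a-3p (0.17), miR-431 (0.05), miR-433-5p (0.11), miR-434-3p (0.21), miR-493-5p (0.10), miR-770-3p (0.15), miR-3579 (0.13) and miR-300-5p (0.03). With normexp and the 75th percentile, which moved the median of all miRNAs to -0.14, it turned for miR-134-5p (-0.12), miR-136-5p (-0.20), miR-329-3p (-0.20), miR-341 (-0.22), miR-376b-3p (-0.08) and miR-382-5p (-0.19). With the software's total signal it turned for miR-134-3p (0.32), miR-300-3p (0.26) and miR-341 (-0.04), in the authors' deposited table for miR-300-3p (0.21) and miR-341 (-0.05), with the mean over probes for miR-341 (-0.04) and miR-379-5p (0.01), and with slide as a block, and within slide 1 (chosen after seeing the data, the same comparison of chow replicate 1 with the high-fat arrays, its 1 chow array assumed to vary like the others), for miR-341 (-0.04), miR-376a-3p (0.11) and miR-376b-3p (-0.19). Quantile normalization turned miR-376a-3p (0.08), and normexp with quantile normalization and outlier spots kept turned miR-341 (-0.00 each). With 1 array left out, differences ran from -0.20 to 0.55 for miR-134-5p, -0.11 to 0.37 for miR-136-5p, -0.05 to 0.06 for miR-341, -0.20 to 0.18 for miR-376b-3p, -0.29 to 0.08 for miR-134-3p, -0.19 to 0.17 for miR-376a-3p, -0.18 to 0.05 for miR-379-5p and -0.19 to 0.01 for miR-487b-3p. Differences that kept their sign ran from -0.71 to -0.27 for miR-127-3p, -0.47 to -0.26 for miR-299b-3p, -0.18 to -0.07 for miR-300-3p, -0.48 to -0.22 for miR-300-5p, 0.10 to 0.31 for miR-329-3p, -0.43 to -0.05 for miR-3579, -0.10 to -0.03 for miR-370-3p, -0.21 to -0.02 for miR-381-3p, 0.05 to 0.33 for miR-382-5p, -0.28 to -0.13 for miR-409a-3p, -0.44 to -0.25 for miR-431, -0.36 to -0.13 for miR-433-5p, -0.27 to -0.02 for miR-434-3p, -0.36 to -0.20 for miR-493-5p, -0.31 to -0.13 for miR-770-3p and -0.20 to -0.03 for miR-770-5p. The cause of these changes was not tested. Dim probes near the floor limit the members detected on 4 or 5 arrays.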
